A study of Mus musculus with 12 samples.

Results

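Ribosome biogenesis was examined in mouse alveolar macrophages through 41 genes that encode nucleolar factors of rRNA synthesis, rRNA modification and subunit assembly. The genes were chosen by symbol from knowledge of the pathway, with earlier results of these data known. All 41 were found among the 43430 genes of the expression table and passed the filter on low values. Alveolar macrophages are the resident phagocytes of the air spaces. RNA sequencing of polyadenylated RNA had been done in a murine lung transplant model on 3 groups of 4 libraries. They came from naive lungs, from lungs 2 h after reperfusion and from lungs 24 h after reperfusion, the return of blood flow to a transplanted organ. All 12 libraries are labelled Cx3cr1gfp/+B6, male and 14 weeks old, so every group, the naive one included, carries the Cx3cr1 reporter allele. The word Allo stands in the titles at 2 h and 24 h and is not explained, and the labels do not say whether donor or recipient cells were collected.

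Ribosomes are built in the nucleolus. RNA polymerase I (Pol I) transcribes the rRNA precursor, box C/D and box H/ACA small nucleolar ribonucleoproteins (snoRNPs) modify it, and separate sets of factors fold, cut and export the small and the large subunit. Making ribosomes costs a cell much of its energy, and the genes of the pathway are known to be raised by growth signals, among them the transcription factor MYC. Macrophages are known to change their protein synthesis when they are activated and when they divide.

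Expression is given in RPKM, a read number corrected for gene length and library size. Library totals, read from the steps of the RPKM values, were 6112586 to 8796071 reads in naive, 7242824 to 10347265 at 2 h and 9129420 to 11997945 at 24 h, and the 41 genes had between 66 and 5637 reads in a library. The 17 alveolar macrophage markers were all tested and summed to 13000 to 13400 RPKM in naive, 9630 to 10600 at 2 h and 10700 to 12700 at 24 h. Of them 2 were higher and 6 lower at 2 h than in naive, and 3 higher and 11 lower at 24 h. The receptor gene Marco went from a mean of 94.9 RPKM in naive to 398 at 24 h and the integrin gene Itgax from 396 to 221. Lymphocyte markers summed to 9.1 to 15.2, 2.11 to 6.64 and 1.4 to 2.85 RPKM, neutrophil markers to 26.2 to 34.9, 28.3 to 40.4 and 41.7 to 48, and epithelial markers to 55.9 to 60.4, 47.2 to 66.9 and 22.9 to 33.1, in the same order. Of these lists 4 of 8, 4 of 8 and 3 of 6 genes passed the filter on low values. Sums of monocyte, interstitial macrophage, dendritic cell, endothelial and stromal, and red cell and platelet markers were between 0.256 and 10.3 RPKM, and no marker of any list was at 0 in all libraries. The part of other cells in the results was not tested. The 2 h libraries, and to a lesser degree the 24 h libraries, stood apart from naive in another way. H2-Ea-ps, an MHC class II gene annotated as a polymorphic pseudogene, was at 0 to 0.184 RPKM in naive, 19.3 to 27.1 at 2 h and 1.48 to 5.2 at 24 h, and the interferon-inducible gene Ifi202b was listed at 0 in naive, at 1.71 to 2.2 at 2 h and at 0 to 0.129 at 24 h. Both were chosen after their values were seen, and both are known to differ in expression between inbred mouse strains. The labels give all groups the same strain, and a difference between the groups cannot be told apart from one of genetic background or of anything else that set these libraries apart. In bulk samples, a changed share of cells and a changed RNA amount per cell cannot be told apart either. The labels do not tie each library to an animal of its own, so the p-values here rest on a spread between libraries that may be technical.

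Among the 41 genes, some of every class passed as higher after reperfusion, apart from the 6 Pol I genes. With so few genes this is near the share of all genes that rose, and does not set the class apart. Of 10 other Pol I genes, 3 rose at each time. At 2 h against naive, 20 of the 41 genes rose, 2 fell and 19 did not pass the test (limma on log2(RPKM + 1), adjusted p under 0.05 over 11419 genes). Over all genes tested 14.7% rose and 22% fell. The median log2 difference of the 41 genes was 0.30, against -0.04 over all genes, and without 2 h replicate 3 it was 0.18. At 24 h against naive, 21 rose, 2 fell and 18 did not pass, with 25.3% of all genes risen and 20.6% fallen, and the median was 0.27 against 0.00. Both comparisons share the naive libraries. The direct comparison of 24 h with 2 h gave 7 genes higher and 5 lower, where 30.9% of all genes were higher and 21.5% lower, and 29 did not pass. Every 2 h library lay above every naive library for 19 of the 41 genes (14% of all genes), and every 24 h library did so for 27 (25.8% of all genes).

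**Figure D1:**
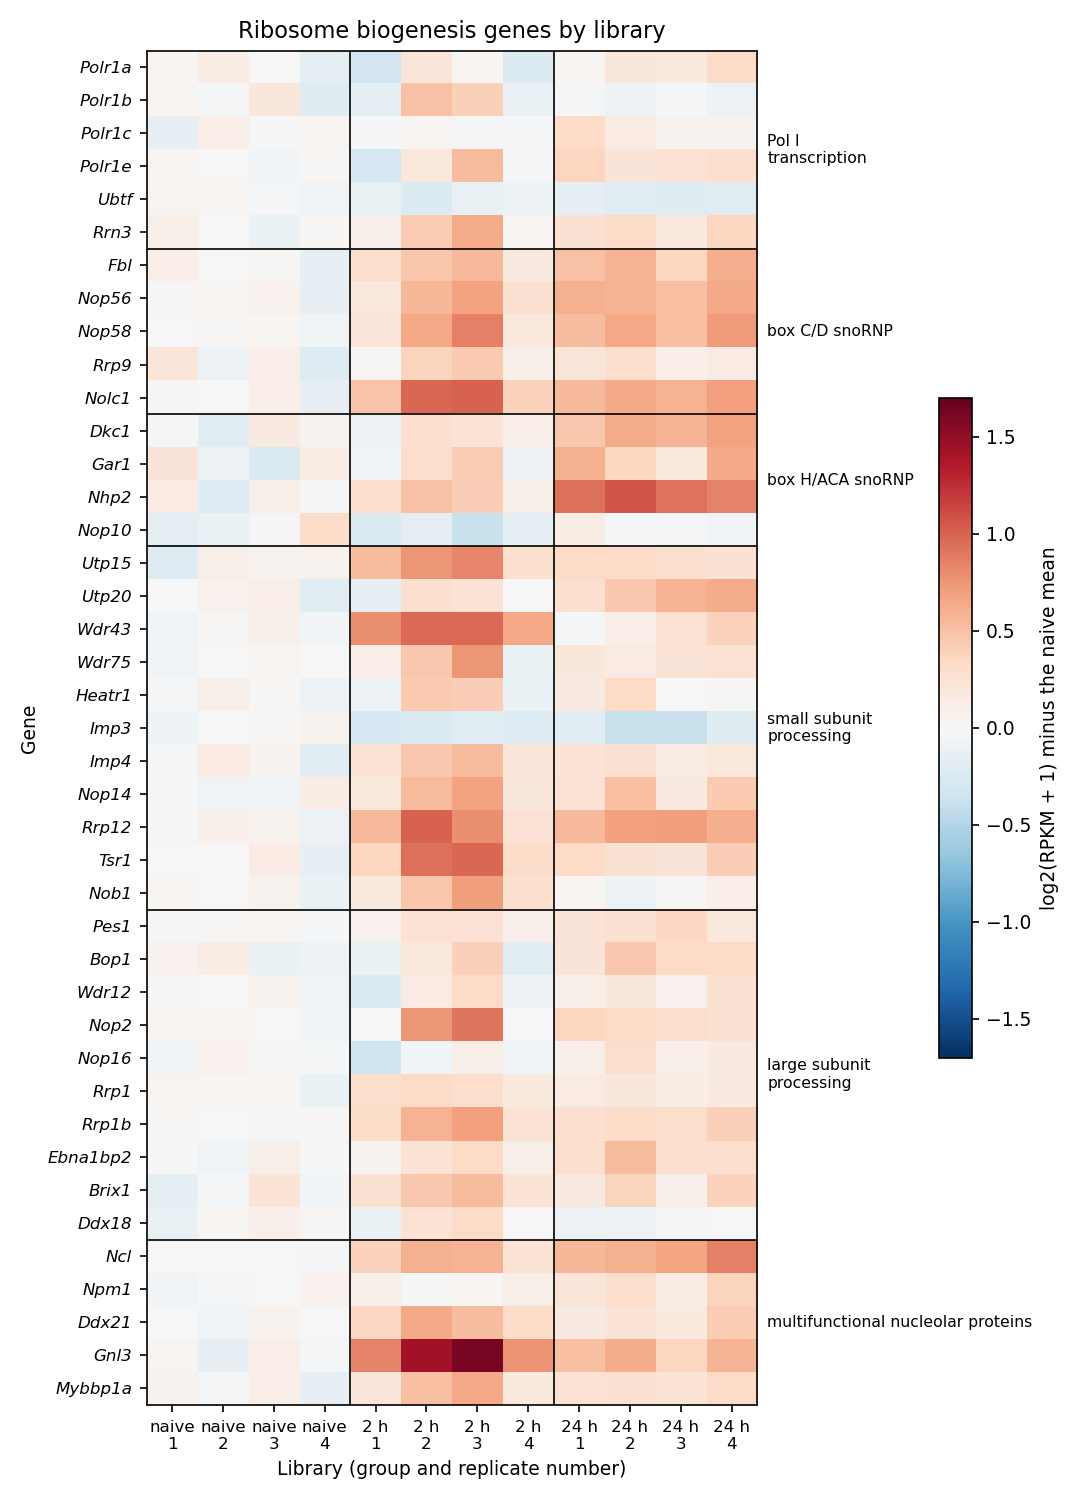
Difference of each library from the naive mean in log2(RPKM + 1), with a row for each of the 41 genes ordered by role and a column for each of the 12 libraries. Reds run through most rows of the 2 h and 24 h columns, are deepest in 2 h replicates 2 and 3, and are few or pale in the rows of Polr1a, Polr1c, Ubtf, Nop10, Imp3 and Ddx18.

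By time, 15 genes were higher at both 2 h and 24 h, 5 rose at 2 h alone (Wdr43, Imp4, Tsr1, Nob1 and Brix1) and 6 at 24 h alone (Dkc1, Gar1, Utp20, Bop1, Ebna1bp2 and Npm1). Imp3 and Ubtf were lower at both times. The other 13 passed at neither time, although Nop10 and Nop16 rose between 2 h and 24 h. How many of all genes belonged to each of these classes was not counted. Over all genes tested 14.7% rose at 2 h and 25.3% at 24 h, and both comparisons share the naive libraries. A gene that passed at a single time is not shown to differ between the times by that alone. The direct comparison passed for Wdr43 and Nob1 among the 5, and for Dkc1, Utp20 and Npm1 among the 6.

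**Figure D2:**
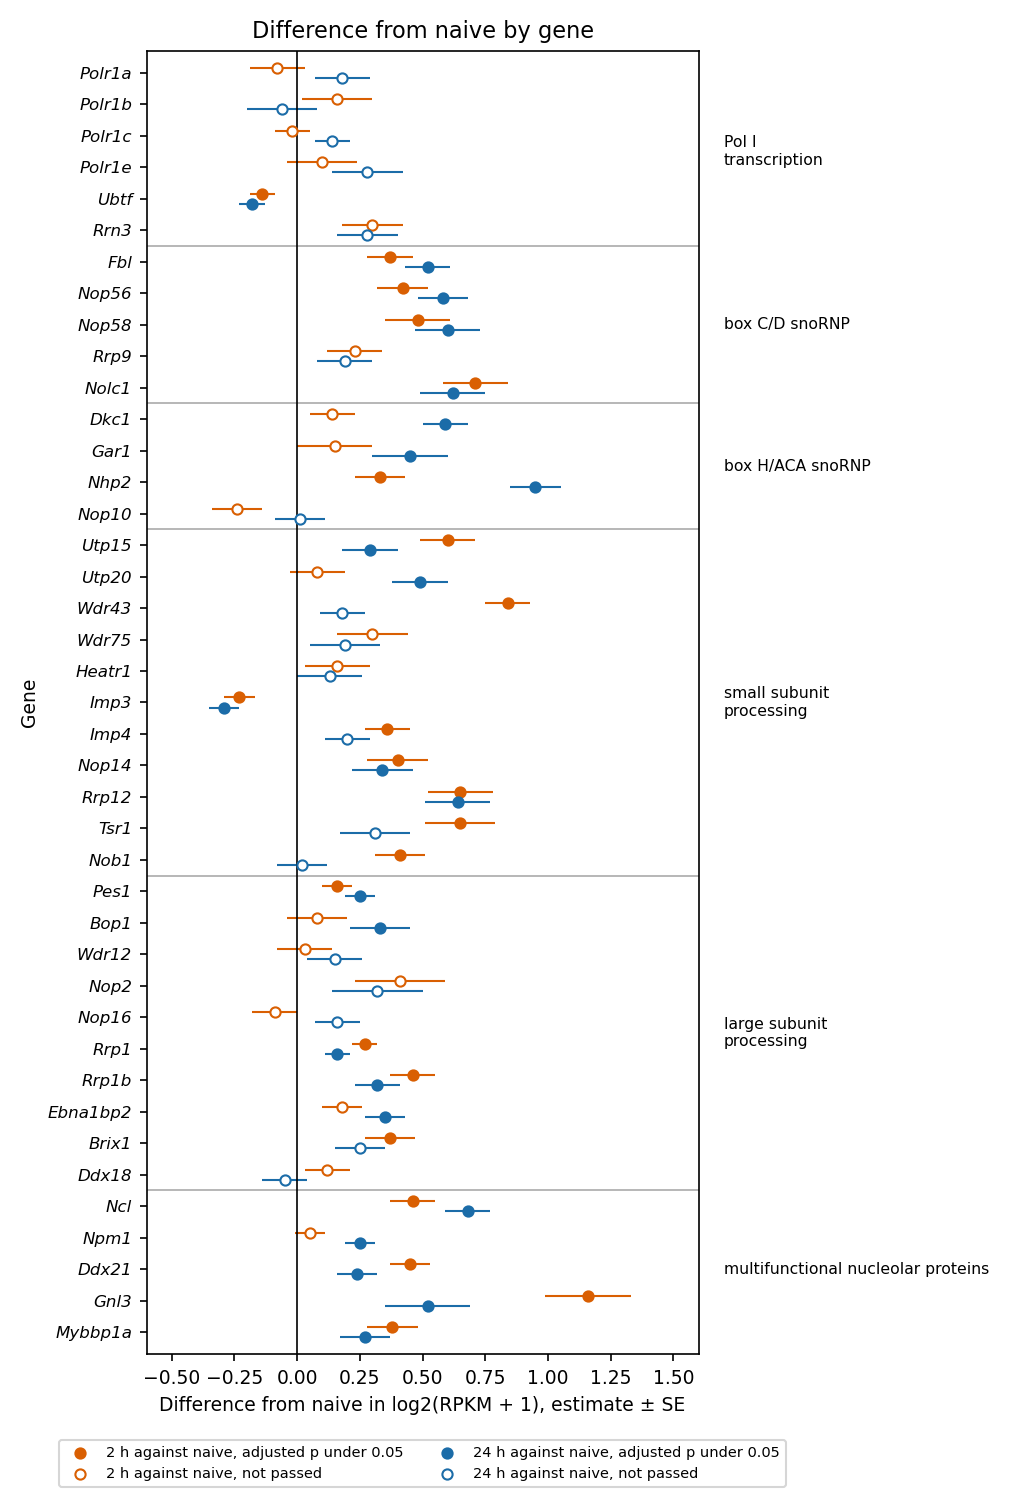
Estimated difference from naive in log2(RPKM + 1) with its standard error, for 2 h (orange) and 24 h (blue), filled where the adjusted p was under 0.05. Gnl3 and Wdr43 reach furthest to the right at 2 h (1.16 and 0.84) and Nhp2 at 24 h (0.95), and only Imp3 and Ubtf have filled points to the left of 0.

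Gnl3 (nucleostemin, a GTPase of the nucleolus) and Wdr43 (a subunit of the complex that first binds the rRNA precursor) changed most at 2 h. They lie at chr14:31012433-31019152 on the minus strand and chr17:71615895-71659031 on the plus strand (mm10). Gnl3 was at 18.7, 16.3, 19.7 and 17.9 RPKM in naive, at 33.3, 50.2, 57.7 and 31.5 at 2 h and at 26.3, 28.7, 23.6 and 27.6 at 24 h. All 2 h libraries and all 24 h libraries lay above all naive ones, replicates 2 and 3 of the 2 h group stood highest, and no 24 h library reached the lowest 2 h library. The mean went from 18.1 ± 1.45 (SD, n = 4) to 43.2 ± 12.9 (SD, n = 4), a 2.38-fold rise (log2 difference 1.16 ± 0.17, SE, adjusted p = 0.000356), and was 26.5 ± 2.21 (SD, n = 4) at 24 h (0.52 against naive, adjusted p = 0.0222; -0.64 against 2 h, adjusted p = 0.00675). The 24 h call against naive was lost without naive replicate 2 (0.48, adjusted p = 0.0599) and without 24 h replicate 2 (0.49, adjusted p = 0.0579). Wdr43 was at 13.1, 14, 14.6 and 13.3 RPKM in naive, 24.6, 27.6, 27.6 and 22.3 at 2 h and 13.4, 15, 16.4 and 18.4 at 24 h. Its 2 h libraries lay above all others and its 24 h libraries overlapped the naive ones. It rose 1.86-fold at 2 h (log2 difference 0.84 ± 0.09, adjusted p = 6.17e-05) and was lower again at 24 h than at 2 h (-0.66, adjusted p = 9.15e-05), when its difference from naive did not pass (adjusted p = 0.138).

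**Figure D3:**
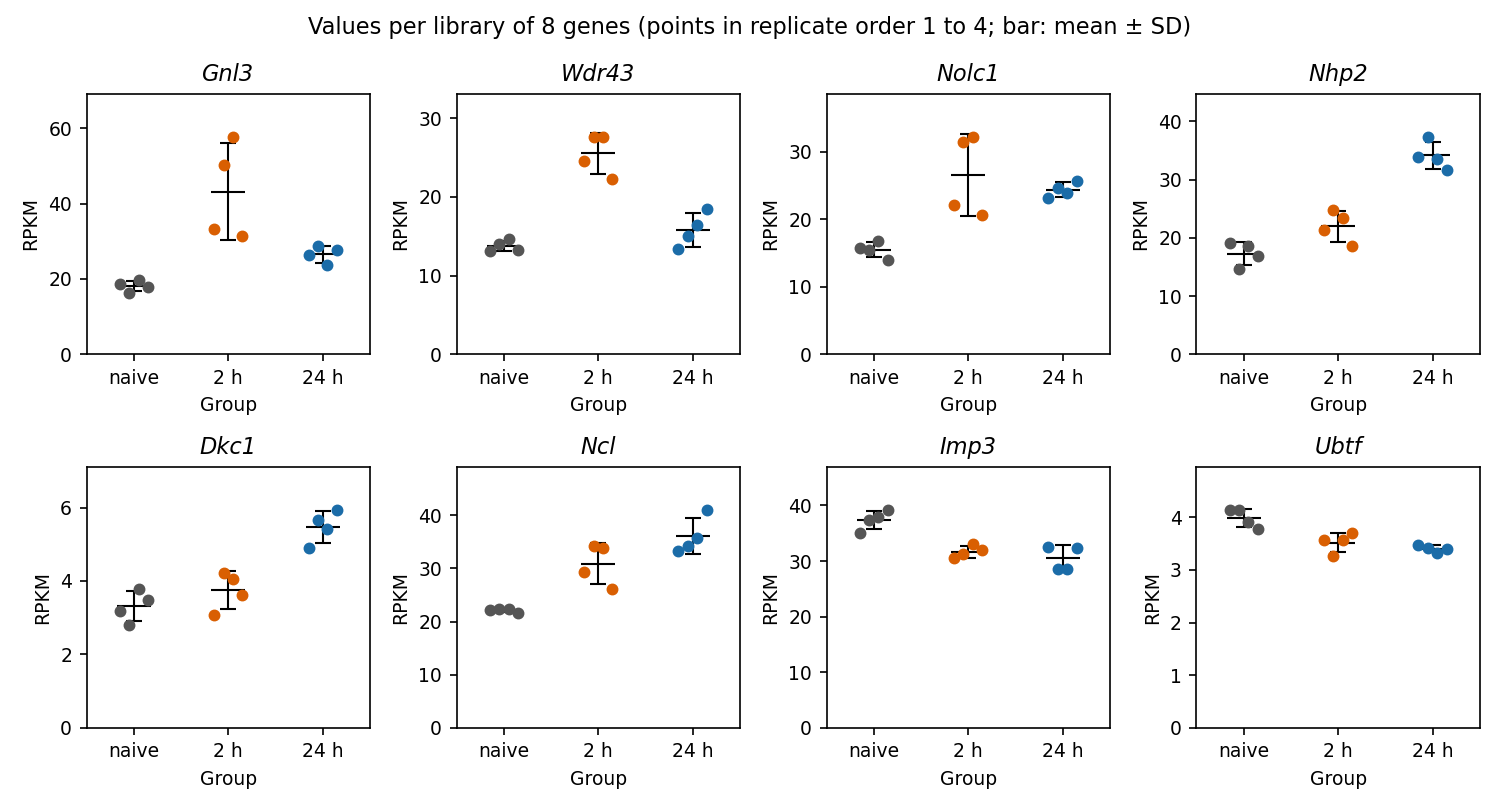
RPKM of 8 genes in each library, points in replicate order 1 to 4 within a group, with the group mean and SD as bars. Gnl3 and Wdr43 are highest at 2 h, Nhp2 and Dkc1 at 24 h, and Imp3 and Ubtf are highest in naive.

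The starts of these genes are shown because Gnl3 and Wdr43 led the 2 h comparison, and because Wdr43, Tsr1 and Nop2 hold the letters CACGTG. This is the palindromic E-box that MYC with its partner MAX, and other factors such as USF and MITF family members, are known to bind. The sequences are from RefSeq (GRCm38.p6, the assembly of mm10), in the direction of the gene. For Wdr43 and Tsr1 they are the first 30 bases of the RefSeq transcript, at chr17:71616215-71616244 and chr11:74898080-74898109, both on the plus strand. For Nop2 and Gnl3 they are bases before the annotated start, at chr6:125131633-125131882 on the plus strand and chr14:31019153-31019381 on the minus strand. Capitals mark CACGTG.
Wdr43: gcctgcgcccgggcgaaCACGTGgctgccg
Tsr1: cggaagtagagttcacttggtgcaCACGTG
Nop2: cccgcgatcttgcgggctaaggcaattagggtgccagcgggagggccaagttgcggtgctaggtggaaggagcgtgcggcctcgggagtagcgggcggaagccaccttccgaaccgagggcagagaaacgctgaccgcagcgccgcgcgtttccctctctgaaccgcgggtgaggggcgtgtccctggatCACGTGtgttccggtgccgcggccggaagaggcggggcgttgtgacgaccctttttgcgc
Gnl3: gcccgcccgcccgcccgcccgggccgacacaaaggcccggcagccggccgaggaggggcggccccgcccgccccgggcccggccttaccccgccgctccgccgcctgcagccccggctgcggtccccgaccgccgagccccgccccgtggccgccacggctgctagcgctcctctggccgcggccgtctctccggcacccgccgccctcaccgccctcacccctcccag
The motif began 17 bases after the RefSeq start of Wdr43, 24 bases after that of Tsr1 and 60 bases before that of Nop2, and these letters are not in the Gnl3 window. The first GENCODE start lies 320 bases before the RefSeq start for Wdr43, 9 before it for Tsr1, 21 before it for Gnl3 and 26 after it for Nop2, so the place of the motif depends on the annotation. Over windows of 300 bases, from 250 before to 50 after the start, 37 of the 41 genes had an entry and 8 of them held CACGTG (21.6%), which reads the same on both strands. The 8 were Imp4, Mybbp1a, Nop2, Pes1, Rrn3, Tsr1, Utp20 and Wdr43. The share was 8.09% over 27025 genes of the table and 12.5% over 8054 genes of the table that were tested here. Of the 8 genes with the motif 5 rose at 2 h and 3 at 24 h, and of the 29 without it 13 and 14. A match is a string of letters and was not tested for binding.

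Pol I transcription had 6 genes, and none of them passed as higher with all libraries. At 2 h and at 24 h against naive, 0 of 6 were called higher by limma and 0 by voom, and 1 of 6 had an unadjusted p under 0.05 with a positive difference at each time. With so few genes this is near the share of all genes that rose, 14.7% at 2 h and 25.3% at 24 h. Of 10 other genes of Pol I transcription, 3 rose and 1 fell at each time, and Taf1d, a subunit of the Pol I selectivity factor, went from a mean of 7 RPKM in naive to 13 at 2 h (log2 difference 0.81, adjusted p = 7.55e-05). Ubtf, which binds the rDNA and opens it for Pol I, was at 4.13, 4.13, 3.91 and 3.78 RPKM in naive, 3.56, 3.26, 3.56 and 3.7 at 2 h and 3.48, 3.42, 3.32 and 3.39 at 24 h. All reperfusion libraries lay below all naive libraries, by little. It fell to 0.883 of the naive mean at 2 h (log2 difference -0.14 ± 0.05, adjusted p = 0.0379) and to 0.854 at 24 h (-0.18 ± 0.05, adjusted p = 0.00985). The 2 h call was lost in 8 of the 12 fits that left out 1 library each (-0.16 to -0.11, adjusted p up to 0.108), and the 24 h call in none of them. Rrn3, which recruits Pol I to its promoter, was at 11.8, 11, 10.1 and 11.1 RPKM in naive, 11.7, 15.2, 17.5 and 11.3 at 2 h and 13.3, 14, 12.4 and 14.5 at 24 h. Replicates 2 and 3 of the 2 h group were above naive and replicates 1 and 4 were within the naive range, while all 24 h libraries were above naive, yet neither difference passed (0.30, adjusted p = 0.0671, and 0.28, adjusted p = 0.0709). The first passed without 2 h replicate 1 (0.37, adjusted p = 0.0354) or 4 (0.38, adjusted p = 0.0191), and the second without 2 h replicate 3 (adjusted p = 0.0246) or 4 (adjusted p = 0.0446). The subunit gene Polr1e was at 1.23, 1.14, 1.08 and 1.18 RPKM in naive, 0.766, 1.44, 2.14 and 1.1 at 2 h and 1.77, 1.5, 1.56 and 1.64 at 24 h, above naive in every 24 h library (0.28, adjusted p = 0.126), a difference that passed without 2 h replicate 3 (adjusted p = 0.0326). Polr1b, the second largest subunit, was at 2.54, 4.56, 4.24 and 2.63 RPKM at 2 h against 2.43 to 3.52 in naive and 2.68 to 2.9 at 24 h, so that the same pair of 2 h libraries was high. Polr1a, the largest subunit, and Polr1c, a subunit shared with RNA polymerase III, did not pass in any comparison, with 24 h means of 8.56 and 3.7 RPKM against 7.44 and 3.25 in naive. Without 2 h replicate 2, Polr1a passed for 24 h against 2 h (0.36, adjusted p = 0.0123).

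Of the 5 box C/D genes, 4 rose at 2 h and the same 4 at 24 h, and none passed between the times. For all genes tested the shares were 14.7% risen at 2 h, 25.3% risen at 24 h and 52.5% passed between the times. Many snoRNPs of the box C/D class methylate rRNA. Between 24 h and 2 h, limma and voom each called 0 of 5 in either direction and 0 of 5 had an unadjusted p under 0.05. Fbl, the methyltransferase, was at 34.6, 31.9, 32.3 and 28.9 RPKM in naive, 39.6, 44.4, 47.2 and 35.5 at 2 h and 45.5, 48.6, 41.5 and 49.5 at 24 h. All reperfusion libraries were above all naive ones (log2 difference 0.37 ± 0.09, adjusted p = 0.00807, and 0.52 ± 0.09, adjusted p = 0.000597). A processed pseudogene with 96.8% identity, Gm5812, was at 1.59, 2.48 and 2.35 RPKM on average in the 3 groups. The whole gene Tulp4, of which a transcript has 99.6% identity over 690 bases, was at 3.71, 4.38 and 3.49. The split of reads between these genes and Fbl is uncertain. Nop56 and Nop58, the scaffold proteins of the particle, rose 1.48-fold and 1.58-fold at 2 h and 1.67-fold and 1.72-fold at 24 h. Nop58 was at 2.59, 2.63, 2.64 and 2.41 RPKM in naive, 3.12, 4.63, 5.44 and 3.05 at 2 h and 4.12, 4.62, 4.07 and 4.88 at 24 h. Its 2 h libraries were all above naive but fell into a higher and a lower pair, and its 24 h libraries lay close together. Nolc1, a phosphoprotein that accompanies snoRNPs, was at 15.8, 15.5, 16.8 and 14 RPKM in naive, 22.1, 31.4, 32.2 and 20.6 at 2 h and 23.1, 24.7, 23.9 and 25.7 at 24 h, a 1.71-fold rise at 2 h (0.71 ± 0.13, adjusted p = 0.00145) and a 1.57-fold rise at 24 h (0.62 ± 0.13, adjusted p = 0.00207). Again no library of either group overlapped the naive range. Rrp9, a protein of the U3 particle, did not pass, with 4.73 ± 0.783, 5.74 ± 0.956 and 5.49 ± 0.385 RPKM (SD, n = 4 each).

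Box H/ACA particles convert uridine to pseudouridine. Of their 4 genes, 3 were higher at 24 h than at 2 h (Nhp2, Dkc1 and Nop10), against 30.9% of all genes tested. Higher at 24 h than in naive were also 3 of 4 (Nhp2, Dkc1 and Gar1), against 25.3% of all genes. With 4 genes this does not set the class apart. Nhp2, a core protein (chr11:51619735-51623714, plus strand), was at 19.1, 14.7, 18.6 and 16.8 RPKM in naive, 21.3, 24.7, 23.4 and 18.6 at 2 h and 33.9, 37.3, 33.6 and 31.7 at 24 h. The 24 h libraries were above all others, and 2 h replicate 4 was within the naive range. It rose 1.97-fold at 24 h against naive (log2 difference 0.95 ± 0.10, adjusted p = 1.19e-05) and 1.55-fold against 2 h (0.62, adjusted p = 0.000244). Its rise at 2 h (0.33, adjusted p = 0.0202) was lost without naive replicate 2 (0.26), 2 h replicate 2 (0.27) or 2 h replicate 3 (0.30). Dkc1, the pseudouridine synthase, was at 3.19, 2.81, 3.77 and 3.47 RPKM in naive, 3.06, 4.23, 4.06 and 3.63 at 2 h and 4.91, 5.65, 5.41 and 5.92 at 24 h. Here 2 h overlapped naive and 24 h overlapped neither (0.59 ± 0.09 against naive, adjusted p = 0.000301, and 0.45 against 2 h, adjusted p = 0.00154). Gar1 was at 3.77, 2.81, 2.46 and 3.48 RPKM in naive, 2.93, 4.06, 4.53 and 2.86 at 2 h and 5.23, 4.28, 3.62 and 5.4 at 24 h, with 24 h replicate 3 inside the naive range (0.45, adjusted p = 0.0281). That call was lost without naive replicate 2 (0.41), naive replicate 3 (0.37), 24 h replicate 1 (0.39) or 24 h replicate 4 (0.38). Between 24 h and 2 h Gar1 passed without 2 h replicate 3 alone (0.39, adjusted p = 0.0457). Nop10, the smallest protein of the particle, was at 25.9, 27, 28.6 and 36.7 RPKM in naive, 24.6, 26, 22.2 and 26 at 2 h and 32, 29, 28.9 and 28.3 at 24 h, and passed for 24 h against 2 h alone (0.25, adjusted p = 0.0468), a call lost in 10 of the 12 fits that left out 1 library (0.20 to 0.27). Against naive its 2 h libraries were lower without naive replicate 1 (-0.29, adjusted p = 0.0455), and not with all libraries.

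Small subunit processing had 11 genes, of which 7 rose and 1 fell at 2 h, and 4 rose and 1 fell at 24 h. The shares of all genes tested that rose and fell were 14.7% and 22% at 2 h, and 25.3% and 20.6% at 24 h. Utp15, of the same early complex as Wdr43, was at 7.74, 9.88, 9.52 and 9.56 RPKM in naive, 13.7, 16, 17.1 and 11.2 at 2 h and 11.7, 11.7, 11.3 and 11.1 at 24 h. It rose 1.58-fold at 2 h (log2 difference 0.60 ± 0.11, adjusted p = 0.00185), and all libraries of both reperfusion groups were above naive. Its 24 h rise (0.29, adjusted p = 0.0492) was lost in 10 of the 12 fits that left out 1 library (0.22 to 0.33), and its fall from 2 h to 24 h (-0.30, adjusted p = 0.0391) in 7 of them (-0.41 to -0.22). Rrp12, which takes part in the maturation and export of the small subunit, was at 4.42, 4.88, 4.76 and 4.17 RPKM in naive, 7.12, 10.1, 8.6 and 5.59 at 2 h and 7.12, 7.97, 8.12 and 7.48 at 24 h. It rose 1.72-fold at 2 h and 1.68-fold at 24 h (adjusted p = 0.00251 and 0.00157), without overlap with naive. Nob1, the nuclease that makes the last cut of the small subunit rRNA, was at 2.47, 2.4, 2.53 and 2.14 RPKM in naive, 2.81, 3.68, 4.54 and 3.07 at 2 h and 2.46, 2.17, 2.42 and 2.67 at 24 h. It rose at 2 h (0.41, adjusted p = 0.00998) and fell from 2 h to 24 h (-0.39, adjusted p = 0.00782), when it overlapped the naive range. Tsr1, a late assembly factor, rose 1.74-fold at 2 h (0.65, adjusted p = 0.0044) and did not pass at 24 h (0.31, adjusted p = 0.0973). Without 2 h replicate 1 or 4 it was lower at 24 h than at 2 h (-0.43, adjusted p = 0.0259, and -0.45, adjusted p = 0.014). Its exons share 32.3% of their bases with Srr on the other strand, which averaged 1.59 RPKM, and reads of the pair cannot be told apart without strand. Imp4 and Nop14, the first a partner of Imp3 in binding U3 RNA, rose 1.35-fold and 1.37-fold at 2 h. The 2 h call of Nop14 was lost without naive replicate 2 (0.38), 2 h replicate 2 (0.36) or 2 h replicate 3 (0.31), and its 24 h rise of 0.34 (adjusted p = 0.036) in 5 of the 12 fits (0.28 to 0.40).

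Within this class Utp20 and Imp3 went other ways. Utp20, a scaffold of the early particle, was at 5.3, 5.6, 5.78 and 4.5 RPKM in naive, 4.69, 6.56, 6.34 and 5.22 at 2 h and 6.55, 7.64, 8.49 and 8.72 at 24 h. Its 2 h libraries overlapped the naive range, and its 24 h libraries were above all naive ones (log2 difference 0.49 ± 0.11, adjusted p = 0.00334, and 0.40 against 2 h, adjusted p = 0.00855). Imp3, which helps U3 pair with the precursor, was at 35.1, 37.4, 38 and 39.1 RPKM in naive, 30.5, 31.3, 33 and 32 at 2 h and 32.6, 28.5, 28.5 and 32.4 at 24 h. Every reperfusion library was below every naive library (-0.23 ± 0.06, adjusted p = 0.00886, and -0.29 ± 0.06, adjusted p = 0.0016). A pseudogene copy with 96.1% identity reached at most 0.993 RPKM. Wdr75 and Heatr1, of the same early complex as Wdr43, did not pass with all libraries. Wdr75 was at 2.77, 3.8, 4.89 and 2.24 RPKM at 2 h and Heatr1 at 11.6, 17.4, 17.1 and 11.5, against 2.36 to 2.63 and 11.6 to 13.4 in naive, with replicates 2 and 3 the highest at 2 h for both. Wdr75 passed at 2 h without 2 h replicate 4 (0.44, adjusted p = 0.0136).

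Large subunit processing had 10 genes, of which 4 rose at 2 h and 5 at 24 h. Among all genes tested 14.7% rose at 2 h and 25.3% at 24 h. Pes1, Bop1 and Wdr12 encode the PeBoW complex. Pes1 was at 10.9, 11.4, 11.5 and 11 RPKM in naive, 11.8, 13.4, 13.4 and 11.9 at 2 h and 13.2, 13.6, 14.5 and 12.8 at 24 h, without overlap with naive at either time (log2 difference 0.16, adjusted p = 0.0466, and 0.25, adjusted p = 0.00353). Its 2 h call was lost in 8 of the 12 fits that left out 1 library (0.13 to 0.19). Bop1 rose at 24 h (0.33, adjusted p = 0.0332), a call lost in 5 of those fits (0.30 to 0.38), and was higher than at 2 h without 2 h replicate 3 (0.37, adjusted p = 0.00804). Wdr12 did not pass, with means of 1.39, 1.47 and 1.66 RPKM. Rrp1 and Rrp1b, related proteins of the large subunit precursor, rose at both times. Rrp1 was at 68.5, 67.6, 67.9 and 60.9 RPKM in naive, 81.3, 83.3, 81.5 and 74.5 at 2 h and 73.3, 76, 72.6 and 73.6 at 24 h, again without overlap with naive (0.27, adjusted p = 0.00163, and 0.16, adjusted p = 0.0226). The 24 h call was lost without naive replicate 4 (0.12) or 24 h replicate 2 (0.14). Rrp1b was at 1.16, 1.12, 1.09 and 1.15 RPKM in naive, 1.65, 2.22, 2.44 and 1.52 at 2 h and 1.6, 1.64, 1.61 and 1.81 at 24 h, a 1.73-fold and a 1.47-fold rise (0.46 and 0.32, adjusted p = 0.00309 and 0.015). At such low values the log2(RPKM + 1) scale understates the fold.

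Ebna1bp2, a large subunit assembly factor, rose at 24 h, from 6.94, 6.71, 7.56 and 6.87 RPKM in naive to 8.8, 10.6, 8.76 and 8.75 (log2 difference 0.35 ± 0.08, adjusted p = 0.00283), and had 7.36, 8.41, 9.1 and 7.6 at 2 h. Brix1, of the same pathway, rose at 2 h (0.37, adjusted p = 0.0156), and passed at 24 h without naive replicate 3 (0.33, adjusted p = 0.0228) or 24 h replicate 3 (0.31, adjusted p = 0.0414) but not with all libraries. Nop2, an rRNA methyltransferase, was at 18.1, 18.1, 17.7 and 16.8 RPKM in naive, 17.6, 30.5, 34 and 17.5 at 2 h and 23, 22.7, 22 and 21.3 at 24 h. Replicates 2 and 3 of the 2 h group were above every other library and replicates 1 and 4 were within the naive range, and the mean difference did not pass (0.41 ± 0.18, adjusted p = 0.0961). Without 2 h replicate 3 it was 0.24, and it passed without 2 h replicate 1 (0.55, adjusted p = 0.0302) or 4 (0.55, adjusted p = 0.024). Its 24 h libraries were all above naive but did not pass with the shared estimate of spread (0.32, adjusted p = 0.176). Nop16 was at 6.4, 8.07, 9.1 and 8.01 RPKM at 2 h, 9, 10.5, 8.92 and 9.45 at 24 h and 7.97 to 8.88 in naive, and passed for 24 h against 2 h alone (0.24, adjusted p = 0.0339), a call lost in 4 of the 12 fits that left out 1 library (0.16 to 0.31). Ddx18, an RNA helicase, did not pass in any comparison, with means of 9.71, 10.7 and 9.32 RPKM.

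The multifunctional nucleolar proteins were higher in 4 of 5 genes at 2 h and in 5 of 5 at 24 h. Of all genes tested, 14.7% were higher at 2 h and 25.3% at 24 h. Ncl (nucleolin, an RNA-binding protein of the nucleolus) was at 22.2, 22.3, 22.3 and 21.6 RPKM in naive, 29.4, 34.2, 33.8 and 26.2 at 2 h and 33.3, 34.2, 35.8 and 40.9 at 24 h. All reperfusion libraries lay above naive, with the naive libraries within a narrow range (log2 difference 0.46 ± 0.09, adjusted p = 0.00174, and 0.68 ± 0.09, adjusted p = 5.73e-05). Its further rise from 2 h to 24 h (0.22, adjusted p = 0.0478) was lost in 9 of the 12 fits that left out 1 library (0.14 to 0.27). Npm1 (nucleophosmin, a chaperone of ribosomal proteins) was at 40.2, 41.5, 42.3 and 44.3 RPKM in naive, 45.3, 41.4, 43.2 and 45 at 2 h and 48.7, 52, 45.8 and 55.1 at 24 h, a late rise of 1.2-fold (0.25, adjusted p = 0.00472). Ddx21, a helicase known to bind both rRNA and Pol II promoters, was at 33.9, 32.9, 35.3 and 33.7 RPKM in naive, 43.6, 53.4, 49.2 and 42.2 at 2 h and 37.8, 39.9, 38.1 and 46.3 at 24 h. It was above naive in all reperfusion libraries and rose 1.39-fold at 2 h (0.45, adjusted p = 0.00141). Its 24 h rise (0.24, adjusted p = 0.0284) was lost in 5 and its fall from 2 h to 24 h (-0.21, adjusted p = 0.0463) in 9 of the 12 fits that left out 1 library (0.18 to 0.27 and -0.28 to -0.15). Mybbp1a, a nucleolar protein that binds MYB, rose at 2 h (0.38, adjusted p = 0.0117) and at 24 h (0.27, adjusted p = 0.0487), the second call lost in 8 of those fits (0.22 to 0.30).

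The spread at 2 h was shared across genes. Replicates 2 and 3 were the 2 highest libraries of the 2 h group for 36 of the 41 genes (87.8%), for 64.4% of 118 other ribosome biogenesis genes and for 26.5% of all genes tested. The mean difference of the 41 genes from naive was 0.12, 0.42, 0.49 and 0.11 in the 2 h libraries and 0.27, 0.32, 0.24 and 0.34 in the 24 h libraries. The median SD of a gene in log2(RPKM + 1) was 0.08 in naive, 0.22 at 2 h and 0.09 at 24 h, against 0.09, 0.14 and 0.10 over all genes. All 4 of the 2 h libraries thus lay above naive on average, to unequal degrees. Library totals did not follow this order, at 10282226, 10347265, 8592567 and 7242824 reads for replicates 1 to 4. The fit gave each gene a single estimate of spread, shared by all groups. For a gene that varied more at 2 h, this overstated the error of 24 h against naive. It understated that of 2 h against naive, so the counts at 2 h and at 24 h are not equally sensitive.

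**Figure D4:**
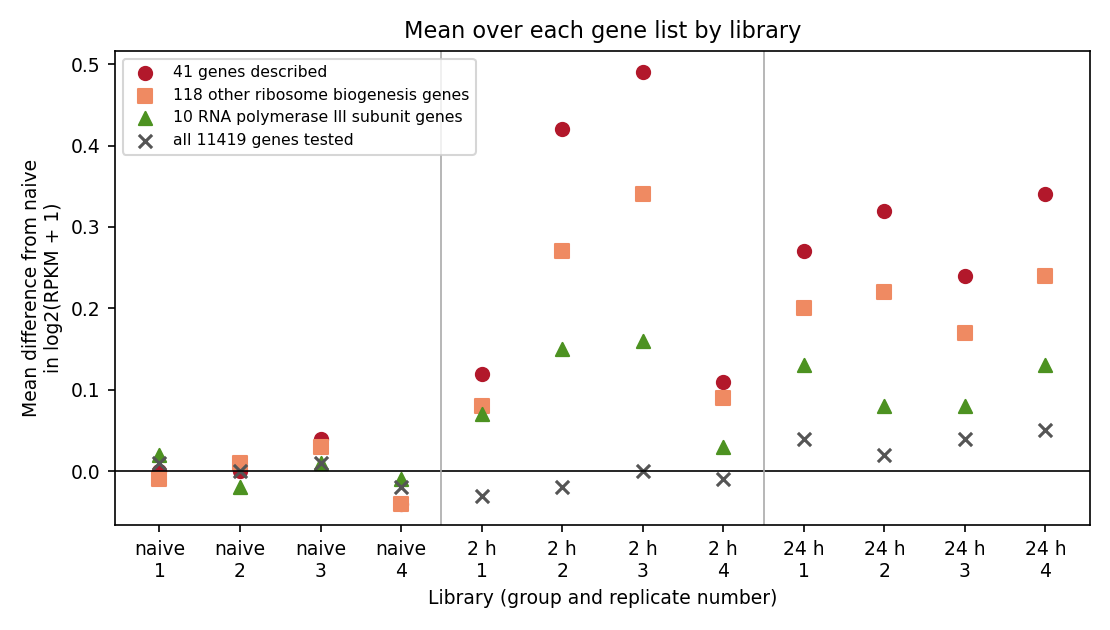
Mean difference from naive in log2(RPKM + 1) for each of the 12 libraries, over the 41 genes, 118 other ribosome biogenesis genes, 10 RNA polymerase III subunit genes and all 11419 genes tested. In the 2 h group the 41 genes reach 0.42 and 0.49 in replicates 2 and 3 and 0.12 and 0.11 in replicates 1 and 4, while the mean over all genes tested stays near 0 in every library.

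A wider list of the pathway was higher too. This list was also chosen with earlier results of these data known, so it is not an independent check of the genes above. Of 118 other ribosome biogenesis genes, 46 (39%) rose and 4 (3.39%) fell at 2 h, and 55 (46.6%) rose and 3 (2.54%) fell at 24 h. Over all genes tested 14.7% rose and 22% fell at 2 h, and 25.3% and 20.6% did so at 24 h. Between 24 h and 2 h, 30 of the 118 (25.4%) were higher and 25 (21.2%) lower, no more than the 30.9% and 21.5% of all genes. The median log2 differences of the 118 genes were 0.18, 0.22 and 0.01. Other large subunit factors rose in 25 of 48 (52.1%) at 2 h and 16 of 48 (33.3%) at 24 h. Of these factors 15 (31.2%) were lower at 24 h than at 2 h. Ccdc86, a nucleolar protein of this class, was at 5.34, 6.33, 7.38 and 6.36 RPKM in naive, 16.5, 16, 15.2 and 12.4 at 2 h and 9.06, 9.52, 8.97 and 9.35 at 24 h, without overlap between any 2 groups (log2 difference 1.12 at 2 h, adjusted p = 1.12e-05). Subunits and cofactors of the RNA exosome, which trims rRNA precursors and degrades RNA, were higher late. At 2 h limma and voom each called 0 of 11 higher, 1 with an unadjusted p under 0.05, and 9 of 11 rose at 24 h against naive and 10 of 11 against 2 h. Exosc9 was at 2.98 to 3.16 RPKM in naive, 3.03 to 3.69 at 2 h and 6.81 to 7.28 at 24 h (0.99 against naive, adjusted p = 6.91e-08).

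Of the 10 genes for RNA polymerase III subunits, 2 rose and 2 fell at 2 h and 3 rose at 24 h, with medians of 0.11 and 0.05. With so few genes these counts are near the shares of all genes, 14.7% and 22% at 2 h and 25.3% risen at 24 h. Polr3f, one of these subunits, rose by 0.46 (log2, adjusted p = 0.000265) at 2 h. Myc was at 6.06, 4.9, 6.4 and 4.96 RPKM in naive, 7.98, 5.22, 7.25 and 7.35 at 2 h and 3.09, 3.04, 3.66 and 3.19 at 24 h. At 2 h it did not pass (log2 difference 0.27, adjusted p = 0.0872), but without 2 h replicate 2 it passed (0.38, adjusted p = 0.0104). At 24 h it was lower than naive in every library (-0.63, adjusted p = 0.000869). Whether MYC had a part in the values of the 41 genes was not tested. Mxd3, a MYC network repressor known to be expressed in dividing cells, rose by 1.24 at 24 h (adjusted p = 1.07e-05). The 25 proliferation markers, all tested, stood in contrast with the 41 genes at 2 h. They summed to 194 to 238 RPKM in naive, 148 to 179 at 2 h and 866 to 976 at 24 h, with 18 of 25 lower at 2 h and 25 of 25 higher at 24 h. Rrm2, a subunit of ribonucleotide reductase, fell by 0.62 on the log2 scale at 2 h (adjusted p = 0.000364) and rose by 2.48 at 24 h (adjusted p = 8.31e-09). The part of dividing cells in the 24 h values of the 41 genes was not tested.

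The 41 genes held another feature, taken from the annotation and not from values of these libraries. It goes with their choice as ribosome biogenesis genes and is not an independent finding. Introns of ribosome biogenesis genes are known to host snoRNAs, which guide the modification of rRNA, and 7 of the 41 genes (17.1%) had annotated snoRNAs inside them, against 3.19% of 11336 genes tested. These were Nop56 with 5, Nop58 with 4, Wdr43, Ncl and Gnl3 with 3 each, Tsr1 with 2 and Dkc1 with 1. The snoRNAs themselves carry no poly(A) tail, so nothing was taken from their values in these libraries. Some overlapped annotated exons of their host on the same strand. In Gnl3, Snord69, Snord19 and Gm24916 covered 1.31%, 1.25% and 1.29% of the exon bases. They were listed at means of 12, 7.2 and 2.61 RPKM over all libraries, and their part in the Gnl3 values was not tested.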

How the data were processed

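RNA sequencing of polyadenylated RNA was done on 12 libraries, 4 in each of 3 groups, which were set by the labelled time point. The authors deposited RPKM values, 1 column for each library and 1 row for each Ensembl gene. Build mm10 and the tools bcl2fastq, TopHat2 and HTSeq are named per the submitters' processing notes. Not given in the sources used here were tool versions, the annotation and the strand setting. The gene length behind the RPKM equalled the exon union of GENCODE M21 in 14.1% of genes (median ratio 1.31), so levels are not compared between genes. Symbols and positions came from GENCODE M21, with a symbol for 42462 of 43430 genes.

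The members and lists were chosen with earlier results of these data known. A gene was tested where 4 or more libraries had an RPKM of 1 or more, which left 11419 genes. The model was limma's (version 3.58.1, R 4.3.3) on log2(RPKM + 1), with the 12 libraries in a single fit, a variance trend, moderated two-sided tests, Benjamini-Hochberg adjustment over all genes and a threshold of 0.05. Log2 differences are on that scale, which understates the change of low genes, and folds are ratios of mean RPKM. RPKM values fell on steps of whole reads (within 0.02 of a read for 11417 of 11419 genes), and voom was run on those reads as an alternative. Library totals were 6112586 to 11997945 reads. Values per library cover up to 3 genes of each role with the smallest p at 24 h and 1 more at 2 h. They also cover genes that fell or changed sign, and genes beside them. Exceptions are Nop56, given by folds, and Polr1a, Polr1c and Ddx18, given by means. Polr1b and Nop16 are given as ranges in some groups. The 2 h pattern over libraries was noticed in the data. Of 120 other ribosome biogenesis symbols, 118 were in the table, and of 12 MYC network genes 10 were tested. Copies of at least 90% identity over at least 150 bases were searched with BLAST 2.17.0. They were found for 14 of the 41 genes, with 9 for Npm1, 6 for Nop56 and 3 for Ddx18. Some copies had no RPKM value, and of those that had, only copies of Fbl reached 1 RPKM in a library. The split of reads between a gene and its copies is uncertain for all 14. The 24 other settings changed the pseudocount, filter, scaling, variance model, libraries or block. Promoters came from RefSeq, with 37 of 41 genes matched. The result of 1 gene is not reported here.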

Additional observations from a re-analysis of the deposited data

Results flagged for a closer look

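In each group of 4 libraries, a library was singled out where its gap to the nearest other library took up more of the group's range than Dixon's critical value. Of 123 groups tested over the 41 genes, 5 met this, where chance gives about 1 in 20. Utp15 was at 7.74 RPKM in naive replicate 1, below 9.52 to 9.88 in the others. Rrp1 was at 60.9 RPKM in naive replicate 4, below 67.6 to 68.5. Ncl was at 21.6 RPKM in naive replicate 4, below 22.2 to 22.3. Ebna1bp2 was at 10.6 RPKM in 24 h replicate 2, above 8.75 to 8.8. Mybbp1a was at 10.7 RPKM in 24 h replicate 4, above 9.95 to 10.1. Without the library concerned, the difference from naive at 24 h was 0.22 for Utp15, 0.12 for Rrp1 and 0.24 for Mybbp1a on the log2 scale, none of which passed. It was 0.29 for Ebna1bp2, which passed, as did Ncl.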

How the results depend on the processing

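The fits were repeated with 24 other settings, 12 of them leaving out 1 library each. No called log2 difference of a named gene changed sign. The median of the 41 genes stayed above 0 at 2 h (0.18 to 0.39) and at 24 h (0.21 to 0.30), while for 24 h against 2 h, where it was -0.04, it lay between -0.12 and 0.05 and was above 0 without 2 h replicate 2 (0.03) or 3 (0.05). Over all settings 16 to 24 of the 41 genes rose at 2 h and 14 to 27 at 24 h. Of the calls, 18 of 22 at 2 h, 15 of 23 at 24 h and 6 of 12 for 24 h against 2 h held in all settings. The filter at 5 RPKM tested 29 of the 41 genes, and of all genes called it left 2669 at 2 h and 3923 for 24 h against 2 h, since fewer were tested, and 1 of the 41 lower at 24 h. Genes lower at 2 h numbered 1 under median-ratio scaling, quantile normalization, no filter, a 5 RPKM filter, only the 2 groups compared and the replicate block, and 1 to 2 without 1 library. For 24 h against 2 h, 4 were higher with no filter, 3 with median-ratio scaling and 4 with quantile normalization, and 4 to 11 without 1 library, 11 being without 2 h replicate 3. Lower were 3 with no filter, 8 with quantile normalization, 11 with library weights, 3 with only the 2 groups compared, and 3 to 7 without 1 library. The cause of these shifts was not tested. Libraries with the same number in different groups correlated little in their deviations from the group means (12 same-numbered pairs, r -0.0426 to 0.0548). Of the 12 libraries 2 correlated best with their own number. This cannot show that the numbers mark no shared animals or batches, on which the labels are silent. With the replicate block 20 rose and 1 fell at 2 h, and 18 and 2 did so at 24 h. Between the times 5 were higher and 4 lower. Depth limits the lowest genes, Polr1e having 66 reads in its lowest library.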
